A study of Mus musculus with 6 samples.

Results

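Mmp9, Mmp14, Lox and Dcn encode proteins that cut, cross-link or organise the extracellular matrix, and their expression was examined in osteoclast precursors after 2 days with sRANKL. They were 4 of the 522 genes named in the deposited tables. Each had 1 probe set. They were chosen by their difference between the groups, since names come only from a list of changed probe sets, all at least 2-fold different, so that difference is given here as a description without a test. At the edge of the list, Nfkbia was included at 2.003-fold, while a probe set without a name at 1.9998-fold was not. Of 908 probe sets with at least a 2-fold difference, 656 are on the list. RNA of 6 dishes from 3 independent experiments was hybridised to Affymetrix Mouse Gene 1.0 ST arrays, 1 array per dish. In each experiment, bone marrow cells of 3 SV129/BL6 mice were pooled, and an enriched but not pure layer of mononuclear precursors was stimulated for 48 hours with 10 ng/ml M-CSF. The non-adherent cells of that pool were divided between a dish with 20 ng/ml M-CSF and 200 ng/ml sRANKL (M-CSF + sRANKL) and a dish with 20 ng/ml M-CSF alone. The sample records and the paper's methods differ on whether the density gradient came before or after the culture in M-CSF. Both groups are labelled WT and both received M-CSF, and the sRANKL was expressed from a pGEX-4T-1 construct. The paper's cell culture methods give wild-type mice aged 6 to 12 weeks. Median log2 intensities over the deposited probe sets, which are not the whole array, were between 8.32 and 8.53 with M-CSF + sRANKL and between 8.16 and 8.44 with M-CSF alone.

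Bone matrix is mostly fibrillar collagen stiffened by covalent cross-links and by mineral. Osteoclasts dissolve the mineral with acid and cut the collagen with cathepsin K and matrix metalloproteinases. Mmp14 encodes MT1-MMP, a collagenase anchored in the plasma membrane, and Mmp9 encodes gelatinase B, a secreted enzyme that cuts denatured collagen and is a long-known product of osteoclasts. Lox encodes lysyl oxidase, the copper enzyme that starts the cross-linking of collagen and elastin. Dcn encodes decorin, a small leucine-rich proteoglycan that binds collagen fibrils and TGF-beta and is best known from fibroblasts. Lox and Dcn are usually described in the cells that build matrix. In pooled cultures such as these, more RNA per cell and more cells of one kind cannot be told apart.

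Gene positions here and for Lox further on are those of the deposited list, whose genome build is not given in the sources used here. The listed position of Mmp14 does not match its promoter window in GRCm38.p6, given below, so the list is not on that build. The listed positions and the promoter window cannot be used together. Mmp9 (Entrez 17395) lies on chromosome 2 from 164773732 to 164781346, and Mmp14 (Entrez 17387) on chromosome 14 from 55050449 to 55060102, both on the plus strand. Dcn (Entrez 13179) lies on the plus strand of chromosome 10 from 96945001 to 96980785. The probes of this array type are spread over the exons of a gene, so the values do not tell isoforms apart.

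The promoter of Lox is not reported here. Of the other genes, only Mmp14, the one with the largest difference between the groups, was matched by symbol in the RefSeq promoter table of GRCm38.p6. Its window, chr14:54431348-54431647 on the plus strand, runs from 250 bases before to 50 bases after the transcription start and is shown 5′ to 3′ to give the sequence context of that gene. The capitals mark a pair of adjacent GC boxes, with the EGR motif overlapping both.
Mmp14: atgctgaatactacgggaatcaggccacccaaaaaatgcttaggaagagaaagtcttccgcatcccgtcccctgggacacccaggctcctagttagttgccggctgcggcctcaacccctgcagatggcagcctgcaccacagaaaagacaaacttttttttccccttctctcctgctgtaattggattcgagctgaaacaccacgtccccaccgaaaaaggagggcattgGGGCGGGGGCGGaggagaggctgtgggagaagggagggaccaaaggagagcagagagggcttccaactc
Both strands were searched for 6 motifs. The GC box GGGCGG occurred at 2 places, 19 and 13 bases before the start site, and is held by 35.7% of the 32851 promoters of that length. The EGR motif GCGGGGGCG, which overlaps both GC boxes, began 17 bases before the start and is held by 2.91% of promoters. The short NFAT core GGAAA was found once, on the opposite strand, and is held by 61.3%. The AP-1 site TGACTCA (5.2% of promoters), the PU.1 core GAGGAA (28.3%) and the TATA box TATAAA (13.6%) were not in this window. A match describes letters only, and the arrays did not measure binding.

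Mmp14 showed the largest difference of the 4 genes, and its level with sRANKL was nearly the same in the 3 experiments. Its RMA intensity in Experiments 1, 2 and 3 was 3022, 3142 and 2788 with M-CSF + sRANKL, against 293.4, 72.5 and 89.9 with M-CSF alone. Here the groups did not overlap, and the lowest sRANKL array was 9.50-fold above the highest M-CSF alone array, that of Experiment 1. The mean log2 intensity was 11.54 ± 0.09 in the M-CSF + sRANKL dishes and 6.96 ± 1.09 in the M-CSF alone dishes (SD, n = 3 each). The log2 difference was 4.59 (limma's standard error 0.48), or 24.0-fold. Here and below, limma's standard error draws on the spread of all rows and leaves out the pairing. The SD of the 3 within-experiment log2 differences was 1.08. Between partner dishes the fold was 10.3 in Experiment 1, 43.3 in Experiment 2 and 31.0 in Experiment 3. The M-CSF alone array of Experiment 1 alone moved the value by more than 1.5 times, and without it the fold was 36.9. By fold, Mmp14 ranked 5 among the 522 named genes.

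Mmp9 followed the same course at a smaller size. Its intensity was 1470, 1747 and 1731 with M-CSF + sRANKL in Experiments 1, 2 and 3, against 190.2, 63.2 and 93.6 with M-CSF alone. All 3 sRANKL arrays lay above all 3 M-CSF alone arrays, by at least 7.73-fold, and the dish of Experiment 1 was again the brightest with M-CSF alone. The mean log2 intensity was 10.68 ± 0.14 in the M-CSF + sRANKL dishes and 6.70 ± 0.81 in the M-CSF alone dishes (SD, n = 3 each). The log2 difference was 3.98 (limma's standard error 0.37), or 15.8-fold, and the SD of the 3 within-experiment log2 differences was 0.94. Within Experiments 1, 2 and 3 the fold was 7.73, 27.6 and 18.5, and it was between 12.3 and 21.4 when any 1 array was left out.

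Lox (Entrez 16948; minus strand of chromosome 18, 52675721 to 52689357 in the deposited list) encodes the cross-linking enzyme. It had intensities of 672.4, 699.4 and 445.1 with M-CSF + sRANKL in Experiments 1, 2 and 3, against 71.8, 36.2 and 37.7 with M-CSF alone. No overlap between the groups was seen. With sRANKL the dish of Experiment 3 was the lowest, while with M-CSF alone that of Experiment 1 was the highest. Mean log2 intensities were 9.21 ± 0.36 in the M-CSF + sRANKL dishes and 5.53 ± 0.55 in the M-CSF alone dishes (SD, n = 3 each). The log2 difference of 3.69 (limma's standard error 0.31) corresponds to 12.9-fold, and the SD of the 3 within-experiment log2 differences was 0.53. Between partner dishes the fold was 9.36 in Experiment 1, 19.3 in Experiment 2 and 11.8 in Experiment 3, and it stayed between 11.4 and 16.1 with any 1 array left out.

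Dcn had the smallest difference of the 4 genes. Its intensity was 186.2, 120.8 and 105.1 with M-CSF + sRANKL in Experiments 1, 2 and 3, against 60.6, 45.1 and 45.9 with M-CSF alone. The groups did not overlap, but the lowest sRANKL array was only 1.74-fold above the highest M-CSF alone array. Experiment 1 gave the brightest dish in both groups. The mean log2 intensity was 7.06 ± 0.43 in the M-CSF + sRANKL dishes and 5.65 ± 0.24 in the M-CSF alone dishes (SD, n = 3 each). The log2 difference was 1.41 (limma's standard error 0.25), or 2.66-fold, and the SD of the 3 within-experiment log2 differences was 0.21. The fold was 3.07 in Experiment 1, 2.68 in Experiment 2 and 2.29 in Experiment 3. Without the sRANKL array of Experiment 1 it was 2.25. The lowest intensity anywhere in the deposited data was 13.2, and no detection call or background level was used here. It is therefore not known whether the M-CSF alone values of Dcn and Lox lay above the array background. The same holds for Mmp9 and Mmp14, which were also dim with M-CSF alone in Experiment 2, at 63.2 and 72.5. The label of the deposited list carries a low limit of 7, whose rule is not given in the sources used here. On the log2 scale the 4 genes averaged above 7 with M-CSF + sRANKL and under 7 with M-CSF alone. Dcn was above 7 only on the sRANKL array of Experiment 1, at 7.54.

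**Figure D1:**
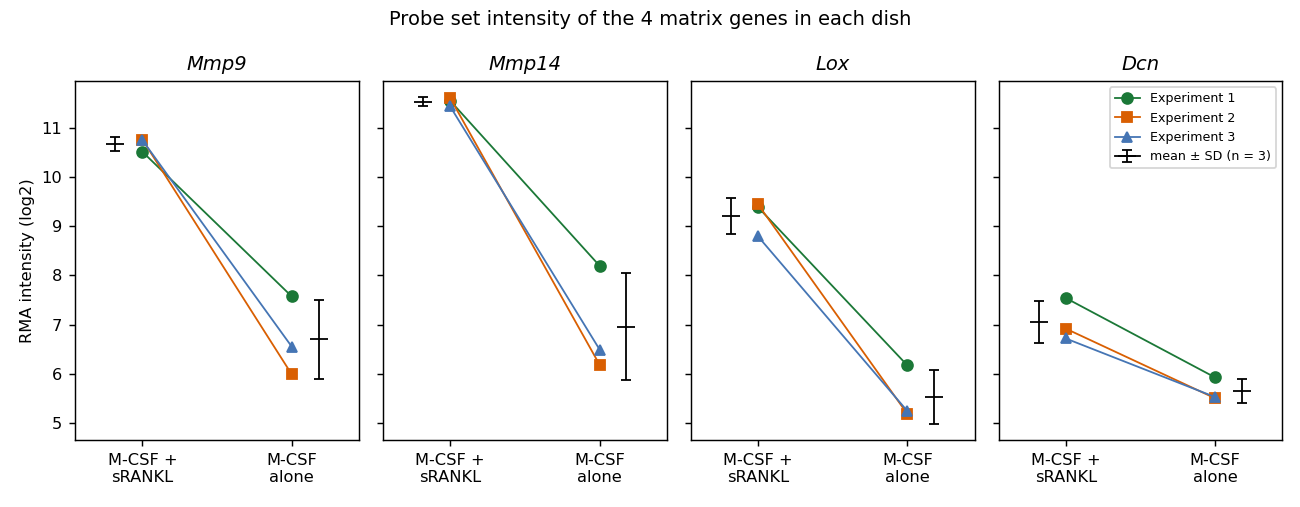
RMA intensity (log2) of the probe set of each gene, with dishes of the same experiment joined by a line and the group mean ± SD (n = 3) beside them. Mmp14 and Mmp9 sit close together across the 3 sRANKL dishes and spread out with M-CSF alone, where Experiment 1 is highest for all 4 genes, while levels of different genes come from different probes and are not compared.

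In all 4 genes, every M-CSF + sRANKL array was above every M-CSF alone array. The same was true of 45.2% of the 2859 rows analysed, and since these genes were named for being changed, nothing is read from the count. The size of the difference was ordered Mmp14, Mmp9, Lox and Dcn in Experiments 2 and 3. In Experiment 1 Lox and Mmp9 changed places. The log2 difference of Mmp14 was larger than that of Mmp9 in each experiment, by 0.41, 0.65 and 0.75 (mean 0.60 ± 0.17, SD, n = 3). The differences of Mmp9 and Lox lay within the spread between experiments, at -0.28, 0.51 and 0.65 (Mmp9 minus Lox, mean 0.30 ± 0.50, SD, n = 3). Lox exceeded Dcn by 1.61, 2.85 and 2.37 on the log2 scale.

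The metalloproteinases differed from Dcn in where their spread lay. The SD of log2 intensity over the sRANKL arrays was 0.09 for Mmp14 and 0.14 for Mmp9, against 1.09 and 0.81 over the M-CSF alone arrays. For Lox the SDs were 0.36 with M-CSF + sRANKL and 0.55 with M-CSF alone, and for Dcn 0.43 and 0.24 in the same order. The spread was larger with M-CSF alone in 72.7% of all rows, where the median SD was 0.17 with M-CSF + sRANKL and 0.26 with M-CSF alone. The M-CSF alone SD of Mmp14 exceeded that of 99.2% of rows and that of Mmp9 95.6%, while Lox exceeded 86.8% and Dcn 43.9%. Dim probe sets vary more on a log scale, so the comparison was repeated on the 382 rows with a mean M-CSF alone log2 intensity under 7, where the shares were 96.6%, 92.9%, 84.3% and 40.1% for Mmp14, Mmp9, Lox and Dcn. These are descriptions of 3 arrays a group.

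**Figure D2:**
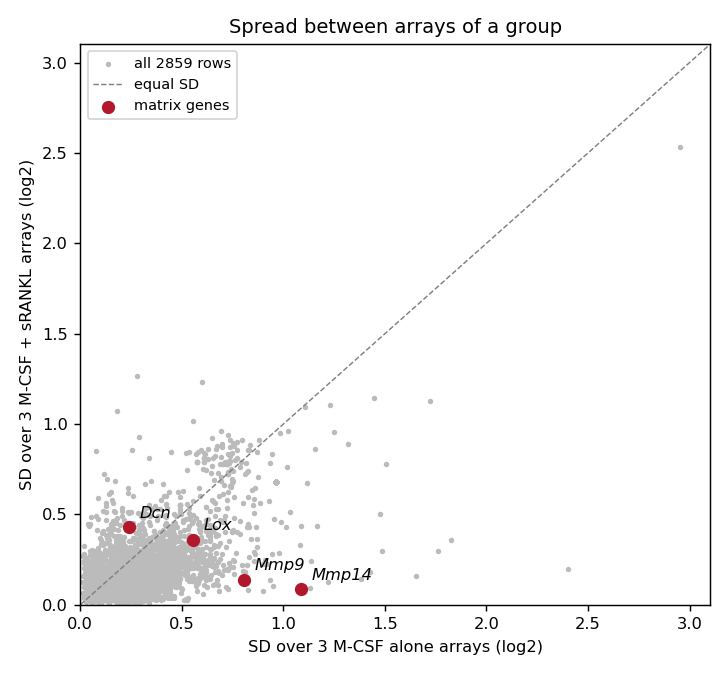
SD of log2 intensity over the 3 M-CSF + sRANKL arrays (vertical) against that over the 3 M-CSF alone arrays (horizontal), for all 2859 rows in grey and the 4 genes in red. Mmp14 and Mmp9 lie far to the right and near the bottom, at SDs of 1.09 and 0.81 with M-CSF alone, and Dcn lies above the line of equal SD.

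The M-CSF alone dish of Experiment 1 stood above its 2 replicates for each of the 4 genes. With M-CSF alone, the array of Experiment 1 was above the mean of the other 2 by 1.86 for Mmp14, 1.31 for Mmp9, 0.96 for Lox and 0.41 for Dcn on the log2 scale. These are 3.63-fold, 2.47-fold, 1.94-fold and 1.33-fold. Over all rows the same array was lower, by a median of 0.15, and it was the highest of the 3 in 26.0% of rows, in 41.9% of the dim rows above and in 40.8% of the 341 named genes that were at least 2-fold higher with sRANKL. With sRANKL, the dish of Experiment 1 did not stand above the others for the metalloproteinases. It differed from their mean by 0.03 for Mmp14 and -0.24 for Mmp9, and by 0.27 for Lox and 0.72 for Dcn. The higher M-CSF alone value in Experiment 1 was not particular to the 4 genes. It was 5.50-fold above the mean of the other 2 for Fpr1, 4.24-fold for Marco and 3.76-fold for Cstdc5. Fpr1 and Marco are named here for their nearness to Mmp14 in profile. Among the other matrix genes, that array was below the mean of the other 2 for Mmp27, P4ha1, Vcan and Sulf2. There was 1 M-CSF alone dish per experiment, so the brighter signal of that dish has no replicate.

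Whether the level of a gene differed between experiments, with treatment held in the model, was a comparison not used to name the genes. The model gives both dishes of an experiment the same shift. A deviation of 1 dish, as for Mmp14 and Mmp9 with M-CSF alone in Experiment 1, counts partly as residual spread, so the test is less sensitive to it. By limma's F-test with Benjamini-Hochberg adjustment over 2859 rows, 14.6% of rows differed. None of the 4 genes did, with an adjusted p of 0.409 for Mmp9, 0.196 for Mmp14, 0.128 for Lox and 0.0751 for Dcn, and unadjusted p of 0.222, 0.0671, 0.0333 and 0.0134 from the same model. At an unadjusted p under 0.05, 2 of the 4 (Lox and Dcn) differed, against 30.4% of all rows, and nothing is read from a count this small. The list used a p-value besides the fold, so a large spread within groups worked against a gene being named. Its label also carries a term for the median absolute deviation, a measure of spread, and a low limit. The rules behind both are not given in the sources used here. The net bearing of the selection on spread is therefore not known. The calls turned on single arrays. When 1 array is left out, its experiment is represented by 1 dish and the fit has 1 residual degree of freedom. The test of that experiment then rests on an unreplicated dish of 1 treatment, so these p-values are not read as strength of evidence. Without the sRANKL array of Experiment 1 the limma adjusted p was 2.75e-07 for Mmp9, 1.02e-13 for Mmp14 and 0.000288 for Lox. Without that of Experiment 2 it was 0.0439 for Mmp9, 0.0217 for Mmp14, 0.00962 for Lox and 0.0451 for Dcn. Without that of Experiment 3 it was 0.0252 for Mmp14 in the limma fit. Leaving out the M-CSF alone array of Experiment 2 gave 0.0192 for Lox, and leaving out that of Experiment 1 gave 0.0373 for Dcn, both adjusted by limma. Dcn also passed, at 0.0372, with each array centred on its median.

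The other matrix genes were taken from a list of 173 genes of matrix breakdown, cross-linking, structure and uptake. Of these 13 are named in the tables, the 4 above among them, and the rest were not analysed here. By limma at an adjusted p under 0.05, 12 were higher and 1 was lower with sRANKL, against 44.9% higher and 33.2% lower over all rows. All of them are named because they had been called changed, so the count is not evidence about matrix genes. The median log2 difference of the 13 was 1.71, beside 1.17 for all named genes and 0.42 for all rows. Values of these genes are mean RMA intensity ± SD, with n = 3 per group.
Among proteases, Ctsk, cathepsin K, the main collagenase of the resorbing osteoclast, averaged 941.8 ± 301.1 with M-CSF + sRANKL and 102.1 ± 14.0 with M-CSF alone, or 8.98-fold. Mmp27, a less studied metalloproteinase, averaged 615.9 ± 103.7 with M-CSF + sRANKL and 242.1 ± 38.9 with M-CSF alone, or 2.54-fold. Ctsg and Prtn3, serine proteases stored in the granules of neutrophils and their precursors, rose 4.26-fold and 3.27-fold. The lists for ADAM and ADAMTS proteases and for collagens had no named gene.
Timp1, a secreted inhibitor of metalloproteinases, was the only inhibitor named. Its intensity was 155.2, 183.3 and 193.7 with M-CSF + sRANKL in Experiments 1, 2 and 3, against 96.5, 103.5 and 64.7 with M-CSF alone. It rose 2.04-fold, and the log2 difference of Mmp9 exceeded that of Timp1 by 2.27, 3.96 and 2.63 in the 3 experiments. For Mmp14 the excess over Timp1 was 2.68, 4.61 and 3.37.
Of the genes that act with lysyl oxidase on collagen, P4ha1, a subunit of the enzyme that hydroxylates collagen prolines, averaged 1215 ± 98.0 with M-CSF + sRANKL and 499.2 ± 62.7 with M-CSF alone, or 2.44-fold. Vcan, the large proteoglycan versican, rose 3.85-fold, while Itgb3, an integrin chain by which osteoclasts hold on to vitronectin and other matrix, rose 2.06-fold. Sulf2, which removes sulfate groups from heparan sulfate, was the one gene that fell, to 125.0 ± 3.2 with M-CSF + sRANKL against 466.5 ± 126.5 with M-CSF alone, a fold of 0.276. It fell in each experiment. By fold the members ranked 1 (Mmp14), 2 (Mmp9), 3 (Lox) and 8 (Dcn) of the 13.

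**Figure D3:**
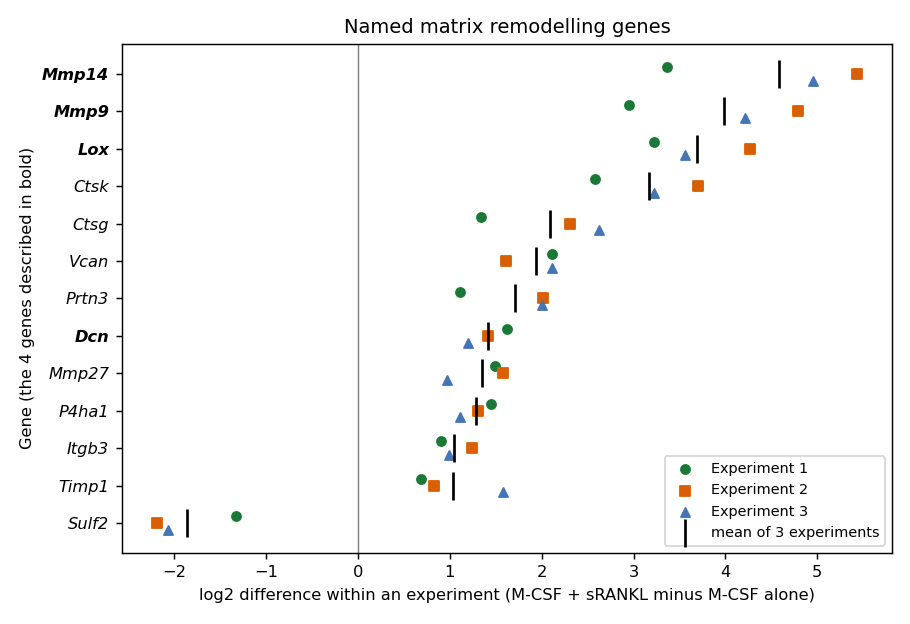
Log2 difference between the partner dishes of each experiment (M-CSF + sRANKL minus M-CSF alone) for the 13 named matrix genes, with the mean of the 3 experiments as a bar and the 4 genes described in bold. Mmp14, Mmp9 and Lox lead with means of 4.59, 3.98 and 3.69, Dcn lies with the genes of smaller difference at 1.41, and Sulf2 alone lies below 0.

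Lox and Dcn are on the list of stromal cell and fibroblast markers, of whose 18 genes 3 are named. The third is Pdpn, podoplanin, a mucin-like glycoprotein of stromal and lymphatic cells that some macrophages also make. Its intensity was 2006, 1432 and 1410 with M-CSF + sRANKL in Experiments 1, 2 and 3, against 171.1, 67.8 and 114.3 with M-CSF alone, or 14.5-fold, without overlap. The type I and III collagens, lumican and the PDGF receptors, which define these cells, are among the 15 listed genes that were not analysed here, as were all 7 osteoblast and all 6 endothelial markers. Of the 17 markers of neutrophils and their precursors, whose granules hold gelatinase B, 6 are named, and all 6 were higher, as were 341 of the 522 named genes, all of them named for having changed. The 6 were Cstdc5 and Stfa1 at 16.7-fold and 7.79-fold, Stfa2 at 2.92-fold, Mpo, myeloperoxidase, at 2.49-fold, and the proteases Ctsg and Prtn3 above. Cstdc5 was 25.9-fold higher when the M-CSF alone dish of Experiment 1 was left out. Cstdc5, Stfa1 and Stfa2 belong to the stefins, whose probe sets can share signal. The summed intensity of the 6 was between 6237 and 9836 with M-CSF + sRANKL and between 1527 and 2405 with M-CSF alone. Of the 12 markers of macrophages and osteoclasts 3 are named (Acp5, Ctsk and Atp6v0d2), with a summed intensity between 3533 and 5283 with M-CSF + sRANKL and between 410.0 and 605.1 with M-CSF alone. The part of such cells in the levels of Mmp9, Lox and Dcn was not tested.

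To find the named genes with the most similar course, each gene was centred on its own mean over the 6 arrays. The root mean square difference of the log2 values was then taken. Genes known only by a predicted gene number or a clone name were passed over. Nearest to Mmp9 were Upp1, a uridine phosphorylase, at 0.28, Pdpn at 0.28 and Lox at 0.35. Nearest to Mmp14 were Marco, a macrophage scavenger receptor, at 0.24, Fpr1, the formyl peptide receptor, at 0.35 and Ccl7, a monocyte chemokine, at 0.36. Nearest to Lox were Acp5, which encodes TRAcP, at 0.23, Ccl5, a chemokine for T cells and monocytes, at 0.25 and Pdpn at 0.29. Nearest to Dcn were Csf1, which encodes M-CSF, at 0.09, Vegfc, a growth factor of lymphatic vessels, at 0.14 and Slc31a2, a copper transporter, at 0.15. The intensity of Csf1 was 214.7, 133.7 and 143.2 with M-CSF + sRANKL in Experiments 1, 2 and 3, against 75.2, 54.0 and 56.6 with M-CSF alone, and Experiment 1 was the highest in both groups, as for Dcn. Among the 4 genes, Mmp9 and Lox were 0.35 apart, Mmp9 and Mmp14 0.38, and Mmp14 and Lox 0.57, while Dcn was between 1.17 and 1.68 from the others. These distances include the size of the difference between the groups.

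**Figure D4:**
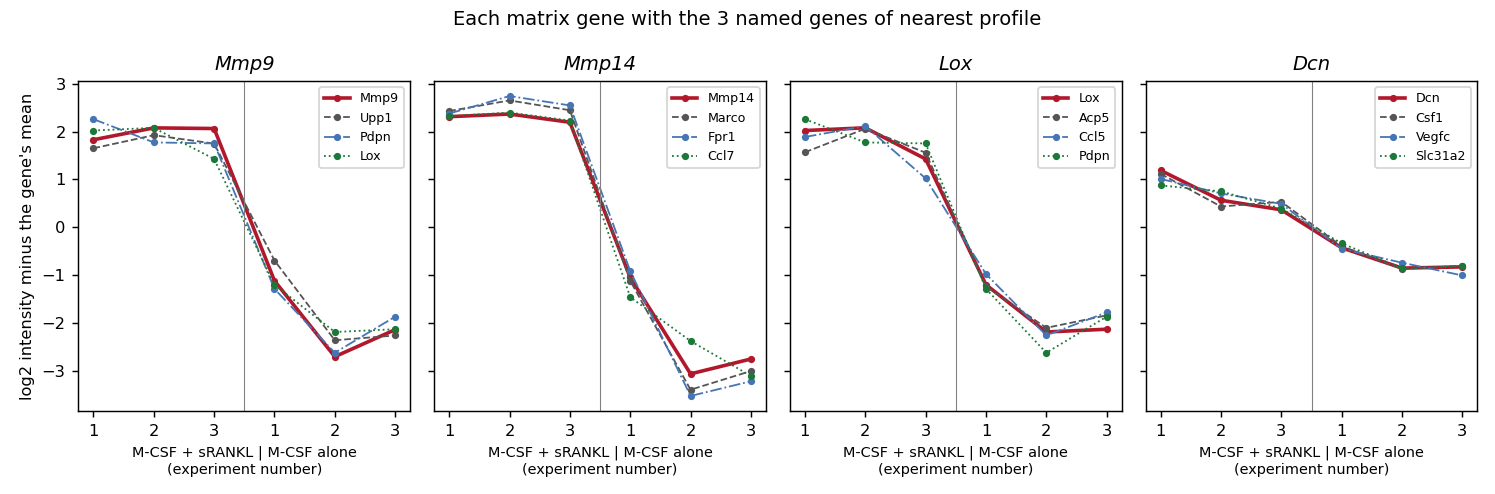
Log2 intensity minus the gene's own mean on the 3 M-CSF + sRANKL arrays (left of the line) and the 3 M-CSF alone arrays (right), by experiment number, for each of the 4 genes in red and its 3 nearest named genes. Marco follows Mmp14 at a root mean square difference of 0.24 and shares its higher M-CSF alone value in Experiment 1, and Csf1 follows Dcn at 0.09.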

How the data were processed

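The deposited intensities, on a linear scale for 2890 probe sets, were made by the authors with RMA in R (version 2.71 in the submitters' processing notes), which corrects background, equalises arrays by quantiles and summarises probes. How the probe sets were chosen is not given in the sources used here. Shares over all rows are therefore shares among these deposited probe sets and not of every probe set on the array. A second deposited table lists 656 changed probe sets and served only for names and positions, while its group means, folds and p-values were left aside. Of its probe sets 553 carry a symbol. These were updated through RefSeq gene numbers (GRCm38.p6), where 547 had an entry. For each gene the brightest probe set on average was kept, leaving 2859 rows and 522 named genes.

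Log2 intensities were compared with limma 3.58.1 in R 4.3.3 with no block. P-values were adjusted over all rows by the Benjamini-Hochberg method, with a threshold of 0.05. A second fit added the experiment. The code was tested on simulated data. Plots and summaries used Python 3.11.15, pandas 2.3.3 and matplotlib 3.10.9. The dishes of an experiment came from 1 pool of cells, which pairs the samples, and deviations of partner dishes had correlations of 0.605, 0.564 and 0.645. Precision is limited by the number of arrays (3 per group).

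The members and lists were chosen with earlier results of these data known. The genes named are the 4 genes, every named gene of the matrix and cell marker lists, and the 3 named genes nearest to each. Nfkbia, at the edge of the deposited list, was added after its value was seen. Alternatives were a fixed or random block for the experiment, the t-test of the methods, limma-trend, quantile normalization, median centring, minimum mean log2 values of 7 and 8, averaged probe sets and leaving out each array. Leaving out Experiment 1 and counting identical rows once were added after seeing the data.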

Additional observations from a re-analysis of the deposited data

How the results depend on the processing

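Over the alternatives that gave a value, the log2 difference was between 3.62 and 4.50 for Mmp9, 4.20 and 5.21 for Mmp14, 3.44 and 4.01 for Lox and 1.17 and 1.58 for Dcn, and no direction changed. For Dcn, leaving out 1 array gave 1.17 to 1.58. The replicate block left the 4 log2 differences as they were (1.41 for Dcn) and gave 1475 higher and 1138 lower rows, against 1285 and 950, and it changed no call of a matrix gene. Centring each array on its median moved the median log2 difference of all rows by -0.13, and quantile normalization by -0.21. When only rows averaging a log2 of 8 or more were kept, 445 were lower and 86 differed between experiments. Of the matrix genes 0 were then lower, since that filter leaves out Sulf2. It also leaves out Lox, Dcn, Timp1 and Itgb3, so 8 were higher, against 12. The filter at 7 leaves out Dcn and Timp1, and 10 matrix genes were higher. With 1 array left out, between 341 and 828 rows differed between experiments, against 417, with 828 and 703 without the sRANKL arrays of Experiments 1 and 2. Averaging probe sets could change none of the 4 genes, which have 1 each, and centring arrays cannot change a distance between genes. No array signal over background was used, so how far it limits the dim M-CSF alone values is unknown.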
